A study of Rattus norvegicus with 58 samples.

Results

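The endoplasmic reticulum (ER) folding and degradation genes were followed in liver and kidney of rats dosed with 4-methylcyclohexanemethanol (MCHM), an alcohol on a cyclohexane ring that is used in coal washing. The list named 38 genes by symbol and was drawn up with earlier results of these data known. A gene counted as measured where an array probe set carried its symbol and no other. By that rule 36 of the 38 genes were found, on 55 of the 31099 probe sets of the table, and they are 36 of the 14217 genes that the probe sets name. Ern1, which encodes the sensor IRE1, and Derl3, which encodes a derlin of the degradation channel, matched no probe set and are not analysed here.

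Male Harlan Sprague-Dawley rats received MCHM by gavage over 5 days at 0, 0.1, 1, 10, 100, 300 or 500 mg/kg. Liver and kidney RNA were each hybridised to Affymetrix Rat Genome 230 2.0 arrays, 1 array per organ sample, so that each organ has 29 arrays (5 controls and 4 for every one of the 6 doses) and the study 58. The controls are the 0 mg/kg groups of the same study and the labels give neither the dosing vehicle nor the age of the rats. The arrays hold total RNA of a whole organ piece, so a lower value can come from fewer cells of a type or from less RNA per cell, and the measurements cannot tell these apart.

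The ER is where secreted and membrane proteins enter the secretory route. They are threaded through the Sec61 channel, receive glycans and disulfide bonds, and fold with the help of chaperones such as the Hsp70 protein BiP (Hspa5) and of lectins that read the glycan. Proteins that do not fold are recognised by other lectins, moved back into the cytosol through a complex around the ubiquitin ligase Hrd1 (Syvn1), and degraded, a route called ER-associated degradation. When unfolded proteins build up, the sensors IRE1, PERK and ATF6 switch on transcription of these same genes, the unfolded protein response, with Xbp1 and ATF6 as transcription factors. Hepatocytes, which secrete most plasma proteins, carry a large amount of this machinery.

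Promoter sequence is described first, because factors of the unfolded protein response act through short elements whose letters are known. The members that hold them can then be followed through the doses. The motifs were chosen with earlier results of these data known. The RefSeq promoter table (build GRCr8) has an entry for 29 of the 38 genes, each a window from 250 bases before to 50 bases after the gene start. Hyou1 has 2 windows, the second with no match, and a gene was counted once where any of its windows held a motif. The ER stress response element (ERSE, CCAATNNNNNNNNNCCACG, in which 9 free bases part CCAAT from CCACG) was present on either strand in 9 of the 29 genes (31%), and in 21 of all 27457 genes of the table (0.0765%). ERSE-II (ATTGGNCCACG) was present in 3 members (10.3%) against 17 of all genes (0.0619%). The UPRE (TGACGTGG) was present in 2 members (6.9%), Hyou1, where it overlaps the first ERSE-II, and Vcp, against 187 of all genes (0.681%). Any of the 3 was present in 13 of the 29 members (44.8%) and in 224 of all genes (0.816%). A match is a run of letters, not a measured binding site. The members were listed for their part in this route and its response, so these shares describe the list and were not tested.

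The ERSE matches are shown with the fixed letters in capitals and the free bases in lower case, read 5′ to 3′ along the strand that holds the match (forward is the strand of the gene), with the distance from the gene start to the base of the match farthest upstream of it.
Hspa5 (forward strand, 43 bases before the start): CCAATcggaggcctCCACG
Hsp90b1 (forward strand, 176 bases before the start): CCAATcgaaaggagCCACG
Hsp90b1 (reverse strand, 72 bases before the start): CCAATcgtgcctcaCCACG
Dnajc3 (forward strand, 133 bases before the start): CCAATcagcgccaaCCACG
Creld2 (reverse strand, 145 bases before the start): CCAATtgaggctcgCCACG
Calr (reverse strand, 232 bases before the start): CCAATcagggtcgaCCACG
Canx (forward strand, 230 bases before the start): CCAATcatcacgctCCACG
Ero1b (reverse strand, 224 bases before the start): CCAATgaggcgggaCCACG
Xbp1 (forward strand, 65 bases before the start): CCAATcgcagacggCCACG
Derl3 (reverse strand, 154 bases before the start): CCAATaaggaagtcCCACG
Hsp90b1, which encodes the ER Hsp90 protein Grp94, has a pair of them on opposite strands. The spacer differs in every one of the 10 matches, and only the outer letters are shared, as the search required.

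The ERSE-II matches, in the same form, lie in a chaperone of the Hsp110 kind (Hyou1), a BiP co-chaperone (Dnajb11) and a scaffold of the degradation complex (Herpud1).
Hyou1 (reverse strand, 188 bases before the start): ATTGGcCCACG
Hyou1 (reverse strand, 88 bases before the start): ATTGGgCCACG
Dnajb11 (forward strand, 10 bases before the start): ATTGGcCCACG
Herpud1 (forward strand, 124 bases before the start): ATTGGgCCACG
The first match of Hyou1 and that of Dnajb11 have the same letters, as have the second match of Hyou1 and that of Herpud1.

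Whole windows are shown for Hspa5, the best known target of the response, and for the 2 genes that fell with dose in liver, Erlec1 and Edem2. They run 5′ to 3′ in the direction of the gene, with GRCr8 coordinates and the chromosome strand of the gene, and capitals mark an ERSE match with its free bases.
Hspa5 (chr3:38452766-38453065, forward strand): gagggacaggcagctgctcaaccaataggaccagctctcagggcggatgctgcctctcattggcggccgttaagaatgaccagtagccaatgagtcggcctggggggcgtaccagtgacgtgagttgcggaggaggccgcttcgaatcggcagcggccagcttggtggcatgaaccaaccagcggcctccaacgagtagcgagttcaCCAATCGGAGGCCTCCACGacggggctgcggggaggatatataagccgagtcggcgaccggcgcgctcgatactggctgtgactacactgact
Erlec1 (chr14:108894248-108894547, reverse strand): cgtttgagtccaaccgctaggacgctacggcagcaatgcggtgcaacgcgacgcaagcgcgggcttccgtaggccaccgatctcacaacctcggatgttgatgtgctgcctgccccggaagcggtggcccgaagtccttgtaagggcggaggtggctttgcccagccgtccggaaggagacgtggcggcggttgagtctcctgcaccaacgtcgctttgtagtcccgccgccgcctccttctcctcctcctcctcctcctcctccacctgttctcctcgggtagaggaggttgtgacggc
Edem2 (chr3:164687510-164687809, reverse strand): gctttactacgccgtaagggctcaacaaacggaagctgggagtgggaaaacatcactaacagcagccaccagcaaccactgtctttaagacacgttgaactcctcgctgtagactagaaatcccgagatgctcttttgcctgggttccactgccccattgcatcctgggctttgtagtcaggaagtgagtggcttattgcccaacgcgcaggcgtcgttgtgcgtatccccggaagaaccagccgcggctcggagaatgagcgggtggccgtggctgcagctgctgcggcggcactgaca
None of the 3 motifs was present in the windows of Erlec1 and Edem2, nor in those of Dnajb9, Sel1l and Sdf2l1. Those letters are absent from these windows, and nothing more is drawn from it.

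All values are log2 RMA values, in which a difference of 1 is a doubling. Each gene is represented by its brightest probe set, changes were tested with limma over all genes above background in the organ, and a gene is called when its Benjamini-Hochberg adjusted p over all those genes is under 0.05. All 36 members passed the background filter in both organs, among 11275 genes tested in liver and 11204 in kidney. Array medians were near one another within an organ (5.26 to 5.32 for liver, 5.33 to 5.38 for kidney), and 0 arrays were duplicates of another. The organ labels fit the markers: albumin lay between 14.65 and 14.71 on the liver arrays, and uromodulin, made by the loop of Henle, between 12.4 and 13.8 on the kidney arrays. Kidney arrays 300 mg/kg replicate 3 and 500 mg/kg replicate 3 stood apart, with a mean over 7 adipose markers of 10.03 and 9.19 where the other 27 kidney arrays reached at most 6.10. Kidney control replicate 2 also stood apart, with albumin at 11.7 on 1 of its probe sets against a median of 3.55 over the other 28 kidney arrays.

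Of the 36 members, 1 fell at 500 mg/kg in liver against the controls, Erlec1, and 0 rose. At that dose 0.958% of all liver genes were called, 55 higher and 53 (0.47%) lower. Over all 7 doses as ranks, the liver dose trend, 2 members fell, Erlec1 and Edem2, beside 1.84% of all genes called, 1.17% lower. In the mean of 300 and 500 mg/kg against the mean of 0.1 to 100 mg/kg, a contrast that uses no control array, Erlec1 and Edem2 again were the members called, beside 5.04% of all genes, 3.17% lower, and both fell. At 0.1, 1, 10, 100 and 300 mg/kg 0 members were called in liver by limma, beside 0%, 0%, 0%, 0% and 0.0266% of all genes, and 1, 0, 12, 17 and 2 members had an unadjusted p under 0.05, where 4.1%, 5.83%, 6.39%, 3.68% and 7.89% of all genes did. The members' changes at 500 mg/kg ran from -0.38 to 0.15, and their median was -0.09. The other 34 members did not pass the test in any liver comparison of dose.

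Erlec1 encodes an ER lectin (XTP3-B) that binds trimmed glycans on misfolded proteins and hands them to the Hrd1 complex. Its liver control arrays read 10.28, 10.26, 10.16, 10.21 and 10.32. At 100 mg/kg the arrays read 10.24, 10.02, 10.18 and 10.12, at 300 mg/kg 10.10, 10.12, 10.06 and 10.05, and at 500 mg/kg 9.91, 9.98, 9.93 and 10.02. The arrays at 300 and at 500 mg/kg were all below all controls, and the 500 mg/kg arrays were also all below the 300 mg/kg arrays. The groups at 0.1, 1 and 10 mg/kg had means of 10.26, 10.26 and 10.25, next to 10.24 ± 0.06 (SD, n = 5) in the controls.

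The Erlec1 difference at 500 mg/kg was -0.29 on the log2 scale (SE 0.05, limma adjusted p = 0.00515), so the level fell by 18.0%, with a 95% interval from -0.39 to -0.18. At 300 mg/kg it was -0.16 (adjusted p = 0.398) and at 100 mg/kg -0.11 (adjusted p = 0.999), neither of which passed. The slope per dose rank was -0.05 (SE 0.01, adjusted p = 0.0023), and the contrast of the high with the lower doses was -0.21 (SE 0.03, adjusted p = 0.000528). Being lower than every control at 300 mg/kg was seen in 1 of 36 members and in 1.61% of all genes, and at 500 mg/kg in 2 members, Erlec1 and Sel1l, and in 2.89% of all genes.

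Erlec1 has a second, dimmer probe set. Its liver difference at 500 mg/kg was -0.25, which did not pass when every probe set was tested on its own (adjusted p = 0.24), and its slope was -0.05 per dose rank (adjusted p = 0.11). Its high against lower dose contrast was -0.31 (adjusted p = 0.00429) and passed. Both probe sets thus gave a lower value at the high doses, with the dimmer one noisier.

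In kidney, Erlec1 was not called in any dose comparison. Its kidney control arrays read 9.97, 9.83, 9.87, 9.86 and 9.98, and its arrays at 500 mg/kg 9.84, 9.92, 9.84 and 9.93, so the groups overlap. The difference was -0.02 with a 95% interval from -0.12 to 0.08. The slope in liver minus the slope in kidney was -0.04 per dose rank (SE 0.01, adjusted p = 0.0459), and Erlec1 was the only member called in that test, beside 0.131% of all 10673 genes tested between the organs (0.0375% lower). That call is at the edge of the threshold: it was lost in 31 of 58 fits that left out 1 array (adjusted p up to 0.121), with arrays of all 14 groups among the 31. It was also lost in 6 of 12 other alternatives: no filter, probe sets averaged per gene (the highest adjusted p, 0.187), all probe sets, eBayes without a trend, the replicate block (0.0925) and without both kidney arrays high in adipose transcripts (0.0706). The difference between the organs at 500 mg/kg alone was -0.27 (adjusted p = 0.081) and did not pass, where 0.122% of all genes did; it passed without kidney control replicate 1 (adjusted p = 0.041), with array weights (0.0244) and with dose and number as a random block (0.0479).

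**Figure D1:**
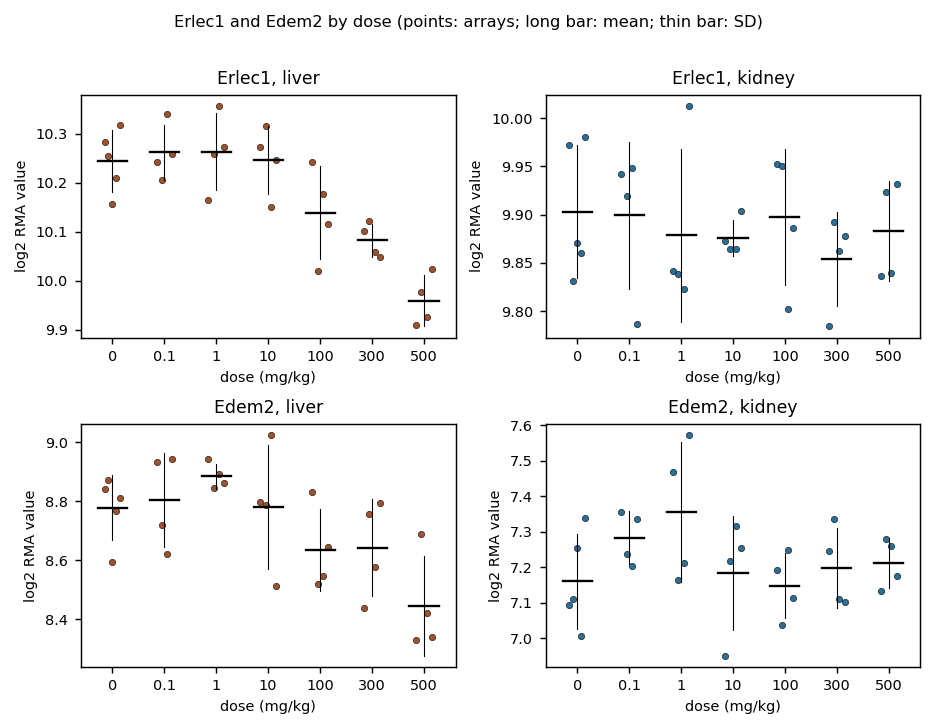
Log2 RMA values (vertical axis) of Erlec1 and Edem2 at each dose in mg/kg (horizontal axis, doses as steps) in liver and kidney; points are arrays, the long bar is the group mean and the thin bar the SD, and the vertical axes do not start at 0. Liver Erlec1 goes from a mean of 10.24 in the controls to 9.96 at 500 mg/kg with no overlap, liver Edem2 from 8.78 to 8.44 with overlap, and in kidney neither gene was called.

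Edem2 encodes a protein of the mannosidase family that starts the trimming by which a glycoprotein is marked for degradation. Its liver control arrays read 8.84, 8.87, 8.59, 8.77 and 8.81, and its arrays at 500 mg/kg 8.33, 8.69, 8.42 and 8.34. Of the 4 arrays at 500 mg/kg, 3 were below every control and replicate 2 lay within the control range. The slope was -0.05 per dose rank (SE 0.01, limma adjusted p = 0.0359), and the high against lower dose contrast was -0.23 (SE 0.06, adjusted p = 0.0282). At 500 mg/kg the difference of -0.33 (SE 0.10, adjusted p = 0.0927) did not pass.

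The Edem2 calls depend on single arrays. The trend call was lost without 0.1 mg/kg replicate 1 or 4, 300 mg/kg replicate 1 or 3, or 500 mg/kg replicate 1, 3 or 4 (adjusted p up to 0.109), and with the replicate number as a block (adjusted p = 0.0594). The high-dose contrast was lost without 300 mg/kg replicate 1 or 3, or 500 mg/kg replicate 1, 3 or 4 (adjusted p up to 0.0796). Without 500 mg/kg replicate 2, the array within the control range, the difference at 500 mg/kg passed (adjusted p = 0.0429). In kidney, Edem2 was 7.16 ± 0.13 (SD, n = 5) in controls and 7.21 ± 0.07 (SD, n = 4) at 500 mg/kg; the difference between the organs at 500 mg/kg was -0.38 (adjusted p = 0.275) and that of the slopes -0.05 (adjusted p = 0.355), so a difference between liver and kidney was not shown.

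The other 5 lectin and glycoprotein genes were Calr and Canx, the folding lectins calreticulin and calnexin, Uggt1, which re-glucosylates unfolded glycoproteins, Os9, which acts beside Erlec1, and Edem1. Their liver differences at 500 mg/kg were between -0.15 for Os9 and 0.01 for Edem1, and none passed. Os9, the lectin closest in role to Erlec1, had a liver slope of -0.02 per dose rank (adjusted p = 0.611). All 7 genes of the group had a liver slope below 0, with a median of -0.02, where 48.8% of all genes were below 0, and 2 of the 7 passed. Whether those 2 differed from the other 5 was not tested.

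The measured genes of the degradation step itself were Herpud1, Sel1l, Syvn1, Derl1, Derl2 and Vcp. Of these 6 transcripts 0 were called in a dose comparison of either organ, and degradation as a process was not measured. Sel1l, the adaptor that links the lectins to Hrd1, read 8.35, 8.45, 8.24, 8.27 and 8.32 in liver controls and 8.20, 8.23, 7.88 and 8.04 at 500 mg/kg. All 4 dosed arrays were below all controls, by a small margin for the upper pair. The difference was -0.24 (SE 0.08, limma adjusted p = 0.121) and did not pass. Herpud1 at 500 mg/kg in liver was 10.51 ± 0.32 (SD, n = 4) against 10.76 ± 0.23 (SD, n = 5), with 1 array at 10.03 and the other 3 between 10.60 and 10.71. Its slope was -0.06 per dose rank (adjusted p = 0.149) and its high against lower dose contrast -0.33 (adjusted p = 0.0654), neither of which passed. Derl1 was the third in the test of the organs at 500 mg/kg, at -0.18 (adjusted p = 0.444).

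Of the 2 measured transcription factors, Xbp1 was spread widely in liver, between 11.35 and 12.16 in the controls and between 11.13 and 11.55 at 500 mg/kg. Its high against lower dose contrast was -0.36 (SE 0.12, limma adjusted p = 0.0754) and did not pass. The array measures total Xbp1 transcript, so the spliced form that IRE1 makes was not separated. Atf6 differed by -0.09 at 500 mg/kg in liver and was not called.

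The measured genes for disulfide bond formation were those of the isomerases Pdia3, Pdia4, Pdia6 and P4hb and of the oxidases Ero1a and Ero1b. In liver Ero1b read 9.76, 9.69, 9.76, 9.73 and 9.74 in the controls and 9.40, 9.79, 9.37 and 9.38 at 500 mg/kg. The controls were tight, 3 dosed arrays lay below them and replicate 2 above. The slope of -0.05 per dose rank (SE 0.01, limma adjusted p = 0.0863) did not pass, but it did without 300 mg/kg replicate 2 (adjusted p = 0.0345) or without 500 mg/kg replicate 2 (adjusted p = 0.0379). Pdia6 had a slope of -0.03 (SE 0.01, adjusted p = 0.123), which passed without 300 mg/kg replicate 3 (adjusted p = 0.0391). Ero1a, the other oxidase, had a difference of 0.15 at 500 mg/kg, and was not called.

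The chaperones and their cofactors did not pass the test at any dose in liver. Among the 10 genes of this group, 7 had an unadjusted p under 0.05 at 10 mg/kg and 9 at 100 mg/kg, all of them lower than the controls, and 1 did so at 500 mg/kg, where 13.9% of all genes did and 7.25% in the lower direction. The median differences of the group at 10, 100 and 500 mg/kg were -0.22, -0.29 and -0.11, and single doses were not tested against each other. At 0.1, 1 and 300 mg/kg the medians were -0.13, -0.09 and -0.13, with 9, 7 and 9 of the 10 genes below the controls. Of all genes 53.9%, 47.6% and 52.8% were below the controls at those 3 doses. Sil1, an exchange factor of BiP, was the 1 gene of the group above its controls at 10, 100 and 500 mg/kg, with means of 8.39, 8.33 and 8.39 against 8.31. Over all 36 members 12 at 10 mg/kg and 17 at 100 mg/kg had an unadjusted p under 0.05, all lower than the controls. These are 33.3% and 47.2% of the members. Of all genes 6.39% and 3.68% had such a p in either direction and 2.76% and 2.37% in the lower one. No gene of the liver was called at these doses, and the members' smallest adjusted p values were 0.714 and 0.999.

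BiP (Hspa5) read 12.70, 12.70, 12.66, 12.41 and 12.46 in the liver controls, 12.48, 12.39, 12.45 and 12.30 at 10 mg/kg, and 12.50, 12.29, 12.51 and 12.28 at 100 mg/kg. At 500 mg/kg it read 12.43, 12.49, 12.59 and 12.58. The 3 upper controls were above all arrays at 10 and 100 mg/kg, and the 2 lower controls overlapped them. Its differences were -0.18 (SE 0.08) at 10 mg/kg, -0.19 (SE 0.08) at 100 mg/kg and -0.06 (SE 0.08) at 500 mg/kg, with limma adjusted p of 0.76, 0.999 and 0.797.

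Dnajb9 (ERdj4), a BiP co-chaperone, had the largest liver difference of the members at 10 and 100 mg/kg, -0.49 (SE 0.17) and -0.45 (SE 0.17). It read 9.65, 10.19, 9.55, 9.55 and 9.31 in the controls and 9.23, 9.23, 9.11 and 9.22 at 100 mg/kg, all of the latter below all controls. At 500 mg/kg it read 9.46, 8.76, 9.36 and 9.51, which overlaps the controls, with a difference of -0.38 (limma adjusted p = 0.322). Dnajb11 read 10.07, 9.77, 9.80, 9.78 and 9.79 in the controls and 9.67, 9.45, 9.67 and 9.47 at 100 mg/kg, again without overlap, a difference of -0.28 (SE 0.09). Dnajc3, an inhibitor of PERK that also binds BiP, was between 11.17 and 11.35 in the controls and between 11.03 and 11.14 at 10 mg/kg; its slope was -0.02 per dose rank (adjusted p = 0.163).

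All 4 dosed liver arrays were below all 5 controls in 3 members at 10 mg/kg (Hsp90b1, Dnajb11 and Dnajc3), where 1.08% of all genes were so, and in 5 members at 100 mg/kg (Dnajb9, Dnajb11, Manf, Pdia3 and Ero1b), where 0.958% were so. That is 8.33% and 13.9% of the 36 members. The count of 17 at 100 mg/kg became 9 without control replicate 1 and 9 without 100 mg/kg replicate 2, and the count of 12 at 10 mg/kg became 6 without control replicate 1, 8 without control replicate 3 and 4 without 10 mg/kg replicate 4. Liver control replicates 1 and 2 were each the highest of the 5 controls in 14 of the 36 members. All these comparisons use the same 5 control arrays. In the contrast of 300 and 500 mg/kg with 0.1 to 100 mg/kg, which uses none of them, 9 of the 10 chaperone genes were above 0, with a median of 0.05 and 0 called, where 49.0% of all genes were below 0.

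**Figure D2:**
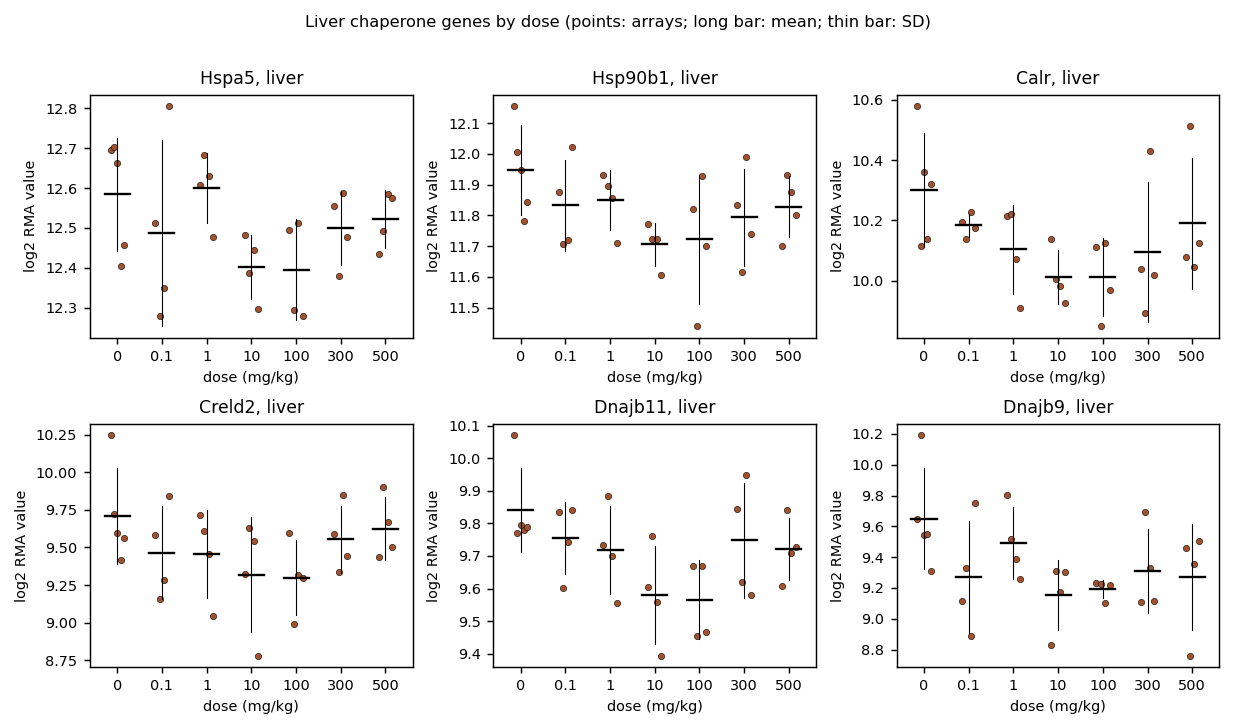
Log2 RMA values (vertical axis, not starting at 0) of 6 folding genes in liver at each dose in mg/kg (horizontal axis, doses as steps); points are arrays, the long bar is the group mean and the thin bar the SD. The means at 10 and 100 mg/kg lie below the control mean in all 6, for BiP (Hspa5) at 12.40 and 12.40 against 12.58. The arrays at both doses overlap the controls for Hspa5, Calr and Creld2. They do not overlap for Hsp90b1 at 10 mg/kg, Dnajb9 at 100 mg/kg and Dnajb11 at both.

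Split by promoter letters, 12 measured members held any of the 3 motifs, 16 had a window without one, and 8 had no entry. At 100 mg/kg in liver 8 of the 12, 6 of the 16 and 3 of the 8 had an unadjusted p under 0.05, all lower, where 3.68% of all genes had such a p and 2.37% in the lower direction, and the median differences were -0.21, -0.11 and -0.11. At 500 mg/kg 1, 4 and 0 did, with medians of -0.12, -0.05 and -0.09; these 5 of 36 members are 13.9%, the same share as the 13.9% of all genes (7.25% lower). The 2 genes called in liver, Erlec1 and Edem2, are among the 16 without a motif. The difference between these sets of genes was not tested.

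Of the translocation genes Sec61a1, Sec61b, Sec61g, Ssr1 and Ssr3, subunits of the channel and of the complex beside it, 0 were called in liver, and their differences at 500 mg/kg lay between -0.13 and 0.00. Across all 36 members the 95% intervals at 500 mg/kg in liver ran from -0.73 at the lowest to 0.36 at the highest bound. No interval of any member reached a halving or a doubling in any dose comparison of either organ.

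**Figure D3:**
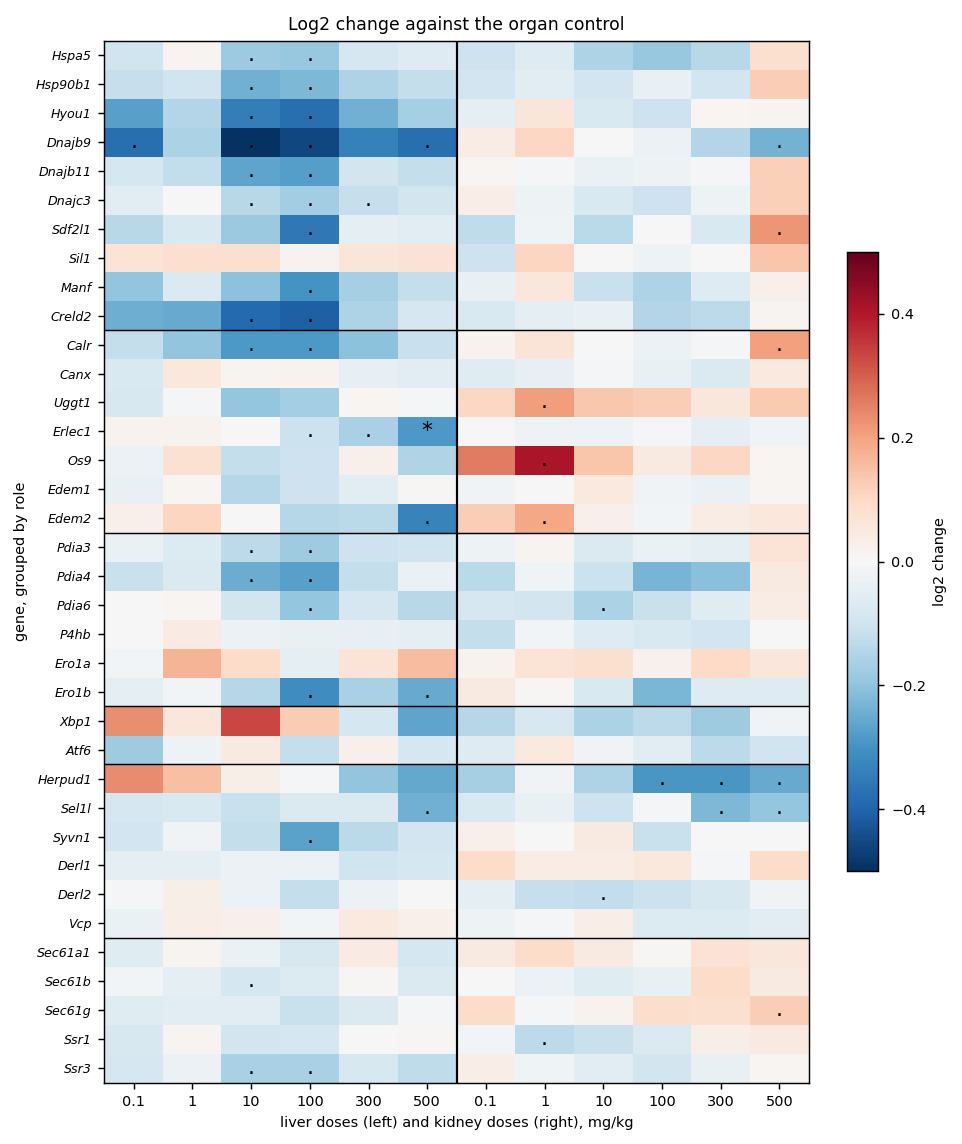
Log2 change against the control arrays of the same organ for the 36 measured members (vertical axis, grouped by role with lines between groups) at 6 doses in mg/kg in liver (left) and in kidney (right); blue is lower, red is higher, a dot marks an unadjusted limma p under 0.05 and a star a Benjamini-Hochberg adjusted p under 0.05 over all genes. The only star is liver Erlec1 at 500 mg/kg. The dots in liver gather among the chaperones at 10 and 100 mg/kg, and among the genes for disulfide formation at 100 mg/kg.

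In kidney 0 members were called by limma at any single dose or in the dose trend. At 0.1, 1, 10 and 100 mg/kg 0% of all kidney genes were called, and at 300 mg/kg 0.0268%. Of the 10 chaperone genes 9, 10 and 8 were below the kidney controls at 10, 100 and 300 mg/kg. Their medians were -0.08, -0.07 and -0.07, and 0 had an unadjusted limma p under 0.05 at those doses. Of all kidney genes 41.3%, 49.2% and 51.2% were below the controls there. Only 1 of the 10 was below at 500 mg/kg, with a median of 0.10, where 44.1% of all genes were. At 500 mg/kg 6 members had an unadjusted p under 0.05, 3 higher and 3 lower (16.7% of the members, 9.58% of all genes), the smallest adjusted p was 0.322, and 0.0268% of all genes were called. In the trend 4 members had an unadjusted p under 0.05, where 9.76% of all genes did, and 0.152% of all genes were called. In the contrast of 300 and 500 mg/kg with the lower doses, 1 member fell, Dnajb9, beside 1.24% of all genes, 0.928% lower.

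Dnajb9 in kidney read 8.44, 8.62, 8.19, 8.44 and 8.55 in the controls. At 300 mg/kg it read 8.29, 8.38, 8.17 and 8.36, and at 500 mg/kg 8.20, 8.05, 8.37 and 8.23. The dosed arrays overlap the controls because control replicate 3 is as low as they are. The contrast was -0.22 (SE 0.05, limma adjusted p = 0.0381), so the level fell by 14.2%, and the difference from the controls at 500 mg/kg was -0.24 (SE 0.08, adjusted p = 0.322). The slope of -0.04 per dose rank (adjusted p = 0.159) passed without control replicate 3 (adjusted p = 0.028).

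The Dnajb9 call in kidney lies near the threshold. It was lost without both arrays high in adipose transcripts (-0.22, adjusted p = 0.0838), with a difference of the same size, and in 11 of 29 fits that left out 1 array (adjusted p up to 0.108). Those were 0.1 mg/kg replicate 1, 1 mg/kg replicate 2, 10 mg/kg replicate 4, 100 mg/kg replicates 2 and 3, 300 mg/kg replicates 1, 3 and 4, and 500 mg/kg replicates 1, 2 and 4. In liver the same contrast of Dnajb9 was 0.01 (SE 0.11); the difference between the organs in that contrast was not tested, and in the dose trend it was -0.01 (adjusted p = 0.941).

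The other kidney members with low p at 500 mg/kg went both ways and were not called. Sdf2l1, a partner of the BiP co-chaperones, read 8.62, 8.65, 8.46, 8.36 and 8.52 in controls and 8.72, 8.72, 8.86 and 8.67 at 500 mg/kg, above all controls by a narrow margin, a difference of 0.22 (SE 0.09, limma adjusted p = 0.399). Herpud1 read 10.21, 10.54, 10.32, 10.22 and 10.35 in controls and 9.91, 10.19, 10.03 and 10.16 at 500 mg/kg, below all controls, a difference of -0.25 (SE 0.11, adjusted p = 0.458). Each was the 1 member whose arrays did not overlap the controls in its direction, where 2.04% of all genes were higher and 1.14% lower in this way.

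Sel1l in kidney was 7.13 ± 0.12 (SD, n = 5) in controls and 6.94 ± 0.10 (SD, n = 4) at 500 mg/kg, with overlap (adjusted p = 0.422). Calr was 9.04 ± 0.13 and 9.25 ± 0.15 (adjusted p = 0.47), and Sec61g, the smallest channel subunit, 10.95 ± 0.08 and 11.07 ± 0.10 (adjusted p = 0.45). Vcp, the ATPase that pulls proteins out of the membrane, had a slope of -0.01 per dose rank (adjusted p = 0.631). BiP differed by less than its spread at 500 mg/kg and was not called.

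**Figure D4:**
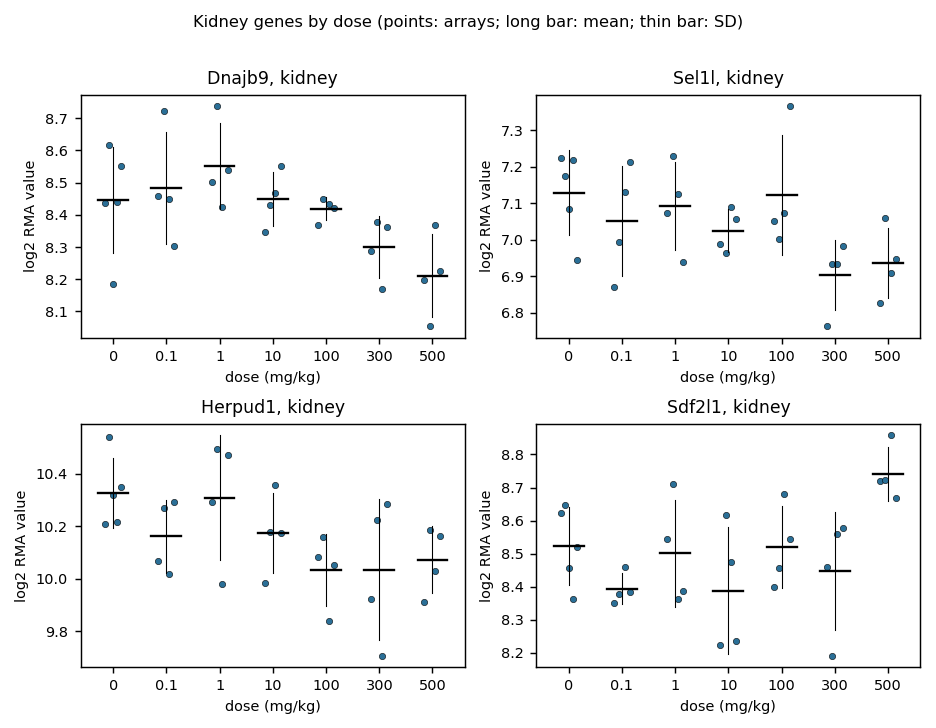
Log2 RMA values (vertical axis, not starting at 0) of Dnajb9, Sel1l, Herpud1 and Sdf2l1 in kidney at each dose in mg/kg (horizontal axis, doses as steps); points are arrays, the long bar is the group mean and the thin bar the SD. Dnajb9 has its lowest means at 300 and 500 mg/kg (8.30 and 8.21 against 8.45 in controls), and the 4 Sdf2l1 arrays at 500 mg/kg sit between 8.67 and 8.86, above the highest control at 8.65.

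Marker genes of other cell types were read on the same arrays. In liver at 500 mg/kg all 7 measured macrophage markers were below the controls, with a median of -0.28 and 0 called. An unadjusted limma p under 0.05 was seen in 6 of the 7, where 13.9% of all genes had one, 7.25% lower. Of all liver genes 48.2% were below the controls at that dose, and 0.958% were called, 0.47% lower. In the dose trend Adgre1 and Csf1r fell, beside 1.84% of all genes called, 1.17% lower. The mean of the macrophage list lay between 8.51 and 8.72 in the liver controls and between 8.15 and 8.62 at 500 mg/kg. Of 4 measured plasma and B cell markers Jchain, the joining chain of secreted antibody, fell at 500 mg/kg (-0.87, limma adjusted p = 0.0348), while the other 3 were above the controls and not called, and the median of the 4 was 0.12. That list's mean lay between 4.67 and 4.79 in controls and between 4.52 and 4.75 at 500 mg/kg. All 7 endothelial and stellate markers were below the controls at 500 mg/kg, with a median of -0.13 and 0 called, and Kdr fell in the contrast of high with lower doses. Of 5 adipose markers 4 were above the liver controls, with a median of 0.27 and 0 called. Of 7 hepatocyte markers Apoa1, an apolipoprotein, fell (-0.30, adjusted p = 0.0245) and Tat, a tyrosine-degrading enzyme, rose (1.39, adjusted p = 0.0191), and the median was -0.01. In the contrast of high with lower doses, in which Erlec1 and Edem2 were called, other markers fell besides Kdr. They were Cd163 and Csf1r of the macrophage list, Jchain (-0.75, limma adjusted p = 0.00113), and Apoa1 and Fgb of the hepatocyte list. Of these lists 0 markers were called higher there, and 5.04% of all genes were called, 3.17% lower. The part of these cell types in the Erlec1 and Edem2 differences was not tested.

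In kidney the list mean of the adipose markers at 500 mg/kg was 9.19 in replicate 3 and 5.31, 5.54 and 5.45 in the other 3 arrays, next to 5.32 to 5.71 in the controls, so that 1 array stood out and the others did not. All 5 measured adipose markers had a mean above the controls at that dose, with a median of 0.89, 0 called and 0 with an unadjusted p under 0.05. In the contrast of high with lower doses, in which Dnajb9 was called, all 5 were higher with an unadjusted limma p under 0.05. Their median there was 1.71 and 0 were called, where 13.4% of all genes had such a p in either direction.

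Without dosing, the members as a group were higher in liver. Of the 36, 34 were higher in liver than in kidney, 1 was lower (Canx) and 1 was not called (Vcp), with a median difference of 1.00 on the log2 scale. Of all 10673 genes tested between the organs, 34.8% were higher in liver and 41.3% lower, with a median of -0.04. No source used here says whether the authors normalized both organs together, so a shift common to all genes of an organ would enter each of these differences.

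Ero1b had the largest difference, 9.74 ± 0.03 in liver against 7.05 ± 0.20 in kidney (SD, n = 5 each), or 6.44-fold (difference 2.69, SE 0.11, limma adjusted p = 4.62e-28). Dnajc3 was 11.23 ± 0.07 against 8.72 ± 0.15, 5.70-fold. Pdia4, an isomerase of the BiP complex, had liver arrays from 11.26 to 11.75 and kidney arrays from 8.89 to 9.21, a difference of 2.46 (SE 0.11). Derl2, a derlin of the degradation channel, was 10.54 ± 0.06 against 8.64 ± 0.07, 3.75-fold on its brighter probe set and with a difference of 1.00 on the other. In all 4 the arrays of the organs were far apart, with the lowest liver array above the highest kidney array.

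Canx went the other way, 10.97 ± 0.10 in liver against 11.52 ± 0.04 in kidney, a difference of -0.56 (SE 0.06, limma adjusted p = 2.12e-12). Of its 2 other probe sets, 1 gave -0.50 (adjusted p = 0.00151) and 1 gave -0.04 (adjusted p = 0.509). Its partner Calr was higher in liver by 1.26. BiP was 12.58 ± 0.14 in liver and 11.80 ± 0.29 in kidney, a difference of 0.78. Vcp, which also works outside the ER, differed by 0.09 (adjusted p = 0.0582). Erlec1 was higher in liver by 0.34 on its brightest probe set and by 0.04 (adjusted p = 0.664) on the other, and Edem2 by 1.62.

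A second probe set of Os9, Atf6 and Ssr3 did not pass either, at -0.05 (adjusted p = 0.666), 0.17 (adjusted p = 0.383) and 0.11 (adjusted p = 0.54), where the brightest one of each was higher in liver. By the brightest probe sets 18 members differed by more than 1 and 3 by more than 2. The number called was between 34 and 36 in the 58 fits that left out 1 array, kidney control replicate 2 with its liver transcripts included.

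**Figure D5:**
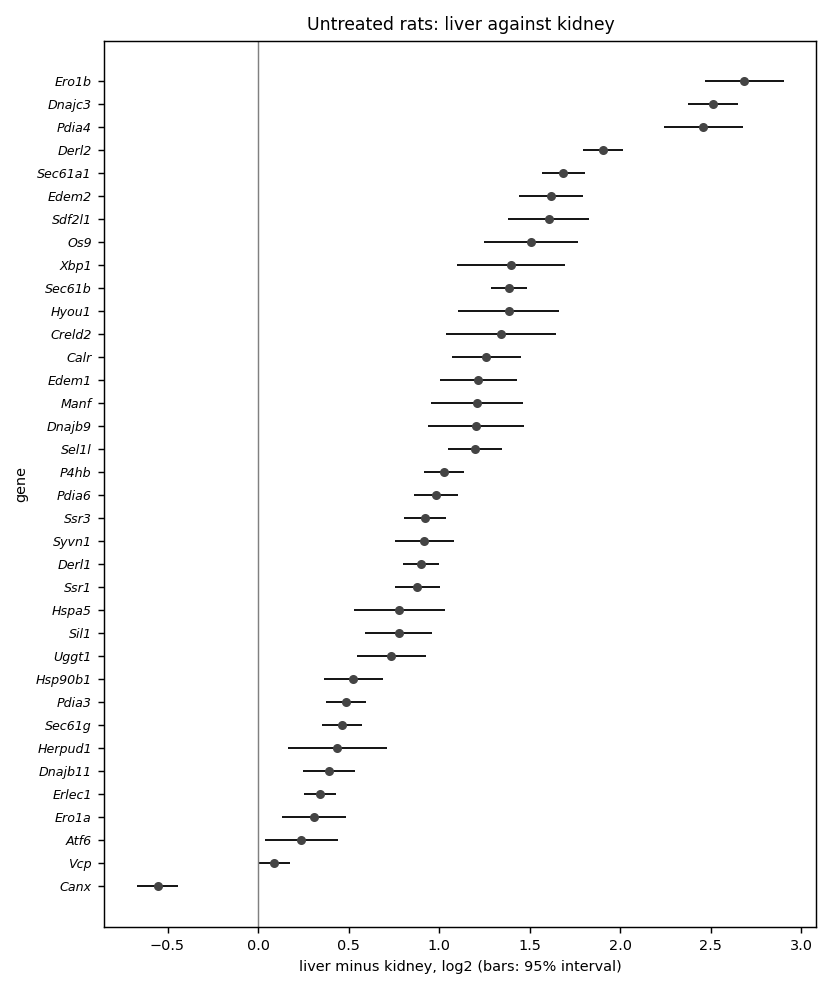
Difference between untreated liver and untreated kidney for the 36 measured members, as liver minus kidney on the log2 scale (horizontal axis), one gene per row; points are limma estimates from 5 control arrays per organ and bars are 95% intervals. Canx alone lies below 0 (-0.56), and Ero1b, Dnajc3 and Pdia4 lie above 2.

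Beyond the members, 89 other genes of the same route were followed, of which 84 were measured. In the liver dose trend 5 fell, 1 rose and the others did not pass, beside 1.84% of all genes called and 1.17% lower. At 500 mg/kg 1 fell and 2 rose, beside 0.958% of all genes called and 0.47% lower. Prdx4, an ER peroxidase that makes disulfide bonds from hydrogen peroxide, was 12.02 ± 0.09 (SD, n = 5) in controls, 11.82 ± 0.12 at 300 mg/kg and 11.77 ± 0.07 (SD, n = 4) at 500 mg/kg. The lowest control lay at 11.88 and the highest array at 500 mg/kg at 11.84, so these groups do not overlap. Of all liver genes 2.89% were lower than every control in this way. Its difference at 500 mg/kg was -0.25 (SE 0.05, limma adjusted p = 0.0194) and its slope -0.04 per dose rank (adjusted p = 0.0035).

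The N-glycan list held 3 of the 5 that fell in the trend. They were Tusc3, Ddost and Ostc, subunits of the oligosaccharyltransferase that attaches the glycan, with slopes of -0.07, -0.03 and -0.02 per dose rank (limma adjusted p of 0.0188, 0.0359 and 0.0394), among 13 measured genes. Tram1, a membrane protein beside the Sec61 channel, had a slope of -0.02 (adjusted p = 0.0466) and was the 1 of 14 translocon genes that fell. Spcs1, a signal peptidase subunit, followed at -0.02 (adjusted p = 0.0733) and did not pass.

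Sar1b, the GTPase that starts vesicles leaving the ER for the Golgi, rose. It was 10.76 ± 0.04 in liver controls and 11.00 ± 0.06 at 500 mg/kg, a difference of 0.24 (SE 0.05, limma adjusted p = 0.0191). Its slope was 0.03 per dose rank (adjusted p = 0.0189). Rnf139, a membrane ubiquitin ligase of the degradation route, rose at 500 mg/kg by 0.24 (SE 0.06, adjusted p = 0.0435), and its slope of 0.03 did not pass (adjusted p = 0.0589). Of the other degradation genes Erlin1 followed with a slope of -0.02 (adjusted p = 0.267), and of the folding enzymes Txndc11 with -0.03 (adjusted p = 0.147). Tmed10, a cargo receptor of the same vesicles, had a slope of -0.02 (adjusted p = 0.142).

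Among the 12 other sensors and transducers 0 passed in the liver trend; Mbtps1, the protease that activates ATF6, had a slope of -0.03 (adjusted p = 0.12) and Eif2ak3, which encodes the sensor PERK, -0.05 (adjusted p = 0.133). At 100 mg/kg 71 of the 84 genes were below the controls, with a median of -0.08 and 0 called, where 53.4% of all genes were below. In kidney 0 of the 84 were called by limma at 500 mg/kg, in the trend or in the contrast of high with lower doses, and 30 of them were below the controls at 500 mg/kg, where 44.1% of all genes were.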

How the data were processed

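The authors deposited 1 table of log2 expression values made with RMA, per the submitters' processing notes; no source used here gives the version or says whether the organs were normalized together. The values ran from 1.75 to 14.85, and 0 sample columns were unmapped. Probe sets were named by the platform annotation, and those with several genes or control sets (57) were not used. Kept probe sets exceeded the 40th percentile of the array in 4 or more arrays of an organ, and each gene was represented by its brightest kept probe set. limma 3.58.1 in R 4.3.3 (lmFit, eBayes with a trend, two-sided) was fitted per organ on 29 arrays, and on all 58 for differences between organs, with Benjamini-Hochberg adjustment over all genes at 0.05. The script was tested on simulated data.

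The members, the other gene lists, the markers and the motifs were chosen with earlier results of these data known. Values are given in full for called members, for the 6 with the smallest p in the trend and at 500 mg/kg in each organ, for 3 between the organs and for the 4 largest differences each way without dosing; of other lists, for called genes and the 2 smallest p in the liver trend. BiP, Dnajb11, Xbp1 and a few others were named after their values were seen. The labels call the arrays biological replicates and do not name the animal, so p-values measure the spread between these samples. Arrays have no read depth, and their number limits the precision. Same-numbered arrays of different doses did not deviate together on average (mean correlation -0.01 in liver and 0.03 in kidney), so the numbers were not taken to pair samples. Single same-numbered kidney pairs ran from -0.36 to 0.67, and both kidney arrays high in adipose transcripts are replicate 3.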

Additional observations from a re-analysis of the deposited data

Results flagged for a closer look

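In 133 groups of arrays checked for members named in the report, 7 held an array far from the others of its group; by chance about 1 group in 20 does. In liver, Dnajb9 at 100 mg/kg had replicate 3 at 9.11 with the nearest array at 9.22. Pdia6 had control replicate 1 at 11.71 (nearest 11.55) and 300 mg/kg replicate 3 at 11.73 (nearest 11.41). Ero1b had 500 mg/kg replicate 2 at 9.79 (nearest 9.40), and Herpud1 had the same array at 10.03 (nearest 10.60). Dnajb11 had control replicate 1 at 10.07 (nearest 9.80). In kidney, Vcp had 500 mg/kg replicate 3, an array high in adipose transcripts, at 11.06 (nearest 11.19).

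The Erlec1 slope differed between the organs by -0.041 per dose rank (limma adjusted p = 0.0459), a tested difference that did not hold under every alternative.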

How the results depend on the processing

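Over the alternatives run, 219 counts of members called stayed within 1.5 times the value reported and 20 moved. Of the named-gene values 457 stayed on the same side of the threshold, 9 became called, 12 lost a call and 0 reversed. Most of the reported counts were 0 and most named-gene values were not called, so these totals say little about how stable the calls are. The 1 member called between organs in the dose trend became 0 with no filter, the mean over probe sets, all probe sets, eBayes without a trend, the replicate block or without both high-adipose kidney arrays, and 0 to 1 leaving out 1 array. The liver count at 500 mg/kg became 2 with array weights and was 1 to 2 leaving out 1 array. The count between organs at 500 mg/kg became 1 with array weights or a random block of dose and number, and was 0 to 1 leaving out 1 array. The liver trend count became 1 with the replicate block, and was 1 to 3 leaving out 1 array; the kidney trend count became 1 with dose as a linear term, and was 0 to 1. The kidney count in the high-dose contrast became 0 without the high-adipose arrays, and was 0 to 1; the liver one was 1 to 4. With the replicate block, the Edem2 slope was -0.06 per rank (adjusted p = 0.0594), the Erlec1 difference of slopes -0.04 (adjusted p = 0.0925), and no other call changed. The alternative without the high-adipose arrays and the random block were added after seeing the data. The block could not be fitted for untreated organs. Arrays of the same dose and number in liver and kidney correlated at a mean of 0.14, where other pairs had a mean of -0.05. The labels do not say whether arrays of the same dose and number share a rat. Member standard errors at 500 mg/kg in liver ran from 0.04 to 0.18, which limits what 4 arrays can show.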
